A study of Mus musculus with 6 samples.

Results

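The collagen chains are the alpha chains of the collagens, each encoded by a gene of its own with a symbol of the form *Col*, a type number, *a* and a chain number. All protein-coding genes with such a symbol were taken, whatever their level or change, so the choice used no measured value. Of the 24016 genes in the table, 41 met the rule, and they belong to 25 collagen types. Another 3 chains of the mouse annotation, *Col9a1*, *Col19a1* and *Col25a1*, were not analysed here. The chains were grouped by the structures they build, into 11 fibrillar chains, 9 network-forming chains, 7 chains of the fibril-associated collagens with interrupted triple helices (FACIT) and 14 others.

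RNA-seq was performed on MC3T3-E1 subclone 4 cells, a line of mouse preosteoblasts from the calvaria that is a single clone, of wild-type genotype per the labels. The cells were differentiated for 6 days in medium that held β-glycerophosphate at 10 mM and ascorbic acid at 50 μg/ml, and were then given vehicle or 100 nM corticosterone for 24 h. The labels give both groups the same treatment text, in which 10 nM calcitriol is present with corticosterone, so the vehicle cultures may have received calcitriol too. Each group held 3 libraries, described as biological replicates. The comparison asked how this natural glucocorticoid of the mouse changes the transcripts of osteoblasts.

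Collagens are secreted proteins in which alpha chains wind around each other as a helix, either as copies of 1 chain or as a mixture of chains, mostly of the same type. Osteoblasts secrete mainly type I collagen, a fibrillar collagen made from the *Col1a1* and *Col1a2* chains, and mineral is laid down on its fibrils. Types III, V and XI take part in fibrils as minor components, FACIT chains sit on the fibril surface, type VI forms beaded filaments around cells, and type IV forms the sheet of basement membranes. Ascorbic acid is needed by the enzymes that hydroxylate the chains.

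Values are read counts on which the authors had used a single size factor for each library, called normalized counts below. Libraries held 16020401 to 25638645 reads counted on genes, and each corticosterone library had fewer than any vehicle library. The first principal component, which held 62.0% of the variance, separated the treatments. As a check of the labels, the glucocorticoid-induced gene *Tsc22d3* rose from 511 ± 30.6 to 1438 ± 93.3 normalized counts and *Fkbp5* from 463 ± 13.5 to 2556 ± 226 (mean ± SD, n = 3). Differences below are log2 fold changes of corticosterone against vehicle from limma on log2(value + 0.1), with standard error (SE) and Benjamini-Hochberg adjusted p over all 24016 genes, and a gene was called higher or lower at an adjusted p under 0.05. The stricter threshold of the study also asks for an absolute log2 fold change over 1.

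The bases upstream of 6 chains are shown because these chains moved in opposite directions with large differences and had a promoter window at hand. They were chosen after their values were seen. *Col3a1*, *Col5a3* and *Col11a2* are fibrillar chains that fell, while *Col27a1*, *Col7a1* and *Col8a1* rose. Each sequence is the 250 bases before the start of the gene in RefSeq (GRCm38.p6), 5′ to 3′ on the strand of the gene, and holds no annotated exon bases. Capitals mark the CCAAT box (CCAAT or ATTGG), the GC box (GGGCGG or CCGCCC), the TATA box (TATAAA or TTTATA) and the core hexamer of a glucocorticoid response element (AGAACA or TGTTCT), searched on both strands. Marked letters in the windows shown belong to no more than 1 motif each.
Col3a1, chr1:45311288-45311537, plus strand: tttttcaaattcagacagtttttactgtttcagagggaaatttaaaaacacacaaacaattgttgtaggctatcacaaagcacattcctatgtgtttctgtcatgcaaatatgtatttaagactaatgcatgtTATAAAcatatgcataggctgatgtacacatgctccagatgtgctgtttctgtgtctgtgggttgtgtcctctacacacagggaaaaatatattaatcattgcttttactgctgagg
Col5a3, chr9:20815068-20815317, minus strand: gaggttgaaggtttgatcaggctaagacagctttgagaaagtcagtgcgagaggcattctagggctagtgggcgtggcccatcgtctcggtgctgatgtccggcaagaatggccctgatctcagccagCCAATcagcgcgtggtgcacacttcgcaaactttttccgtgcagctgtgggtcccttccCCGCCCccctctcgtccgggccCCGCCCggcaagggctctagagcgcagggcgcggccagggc
Col11a2, chr17:34038888-34039137, plus strand: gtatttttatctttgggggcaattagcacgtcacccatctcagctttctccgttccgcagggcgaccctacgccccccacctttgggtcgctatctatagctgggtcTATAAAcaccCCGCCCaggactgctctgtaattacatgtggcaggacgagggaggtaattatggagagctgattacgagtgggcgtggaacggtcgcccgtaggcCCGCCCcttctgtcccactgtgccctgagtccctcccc
Col27a1, chr4:63215162-63215411, plus strand: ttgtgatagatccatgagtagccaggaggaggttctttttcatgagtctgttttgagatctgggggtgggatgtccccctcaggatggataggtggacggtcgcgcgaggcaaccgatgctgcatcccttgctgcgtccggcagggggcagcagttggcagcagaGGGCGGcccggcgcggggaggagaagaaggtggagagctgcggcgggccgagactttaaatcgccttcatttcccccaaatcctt
Col7a1, chr9:108953336-108953585, plus strand: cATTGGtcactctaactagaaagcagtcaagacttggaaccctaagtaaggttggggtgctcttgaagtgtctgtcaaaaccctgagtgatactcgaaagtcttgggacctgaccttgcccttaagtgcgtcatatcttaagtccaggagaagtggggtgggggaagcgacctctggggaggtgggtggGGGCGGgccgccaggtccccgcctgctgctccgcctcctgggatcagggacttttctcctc
Col8a1, chr16:57754738-57754987, minus strand: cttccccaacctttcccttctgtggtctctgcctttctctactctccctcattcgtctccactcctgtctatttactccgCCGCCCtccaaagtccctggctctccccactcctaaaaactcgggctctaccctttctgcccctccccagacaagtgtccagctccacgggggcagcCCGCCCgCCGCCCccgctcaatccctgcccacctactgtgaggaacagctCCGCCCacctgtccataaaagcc

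The 3 falling chains differ in these windows. *Col3a1* has a TATA box and none of the other motifs, *Col5a3* has a CCAAT box and 2 GC boxes, and *Col11a2* has a TATA box and 2 GC boxes. Among the rising chains, *Col8a1* has 4 GC boxes, *Col7a1* a CCAAT box and 1 GC box, and *Col27a1* 1 GC box. The start of *Col27a1* in RefSeq lies inside the gene as GENCODE draws it, so its window is not upstream of every annotated transcript. RefSeq windows were found for 32 of the 41 chains (34 windows), in each of which only the 250 bases before the start were searched, as in those of all genes, and *Col1a1* is among the 9 chains with no window. A GC box was present in 21 of the 34 collagen windows (61.8%) and in 32.7% of the 32851 windows of all genes. The CCAAT box was present in 11 (32.4%, against 33.8% of all windows) and the TATA box in 5 (14.7%, against 12.4%). The glucocorticoid hexamer was found in 1 window, that of *Col20a1* (2.94%, against 16.1% of all windows), and in none of those shown. A match is a run of letters, not a binding site, and the lack of one holds for these 250 bases only.

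Corticosterone lowered more collagen chains than it raised. At an adjusted p under 0.05 (limma), 17 of the 41 chains were lower and 7 were higher, and 17 were not called. Over all genes 8.2% were called lower and 8.49% higher. Past the stricter threshold 4 chains were lower (*Col11a2*, *Col5a3*, *Col22a1* and *Col6a5*) and 0 were higher, where 1.4% and 1.38% of all genes were called. With edgeR and with DESeq2 0 chains were higher past the threshold as well. At an unadjusted p under 0.05, 9 chains were higher in limma, and 0 of them had a log2 fold change over 1. The vehicle and corticosterone values did not overlap in 18 chains that were lower and 9 that were higher, and over all genes the groups were separated in 14.9% and 14.7%. Across the 41 chains the log2 fold changes had a median of -0.35, against -0.01 over all genes.

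A mean of at least 10 normalized counts was reached by 33 chains, which include all 24 called chains. *Col6a5*, which was called, and *Col9a2* and *Col6a4*, which were not, reached it only through their vehicle libraries. Of genes at that level 13.5% were called lower and 14.2% higher. Among the 21 chains with a mean of at least 1000, 13 were lower and 4 higher, where 17.6% of genes at that level were lower and 24.1% higher. The most abundant chains moved one way. Of the 10 chains with a mean of at least 10000, 9 were lower and 0 higher, while of the 218 genes of any kind at that level 36 were lower and 98 higher. The remaining chain of the 10, *Col16a1*, was not called, and limma, edgeR and DESeq2 all gave 0 higher among the 10 also at an unadjusted p under 0.05. In bulk RNA a drop in the number of expressing cells and a drop of the transcript in each cell cannot be told apart, which holds for each result here.

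**Figure D1:**
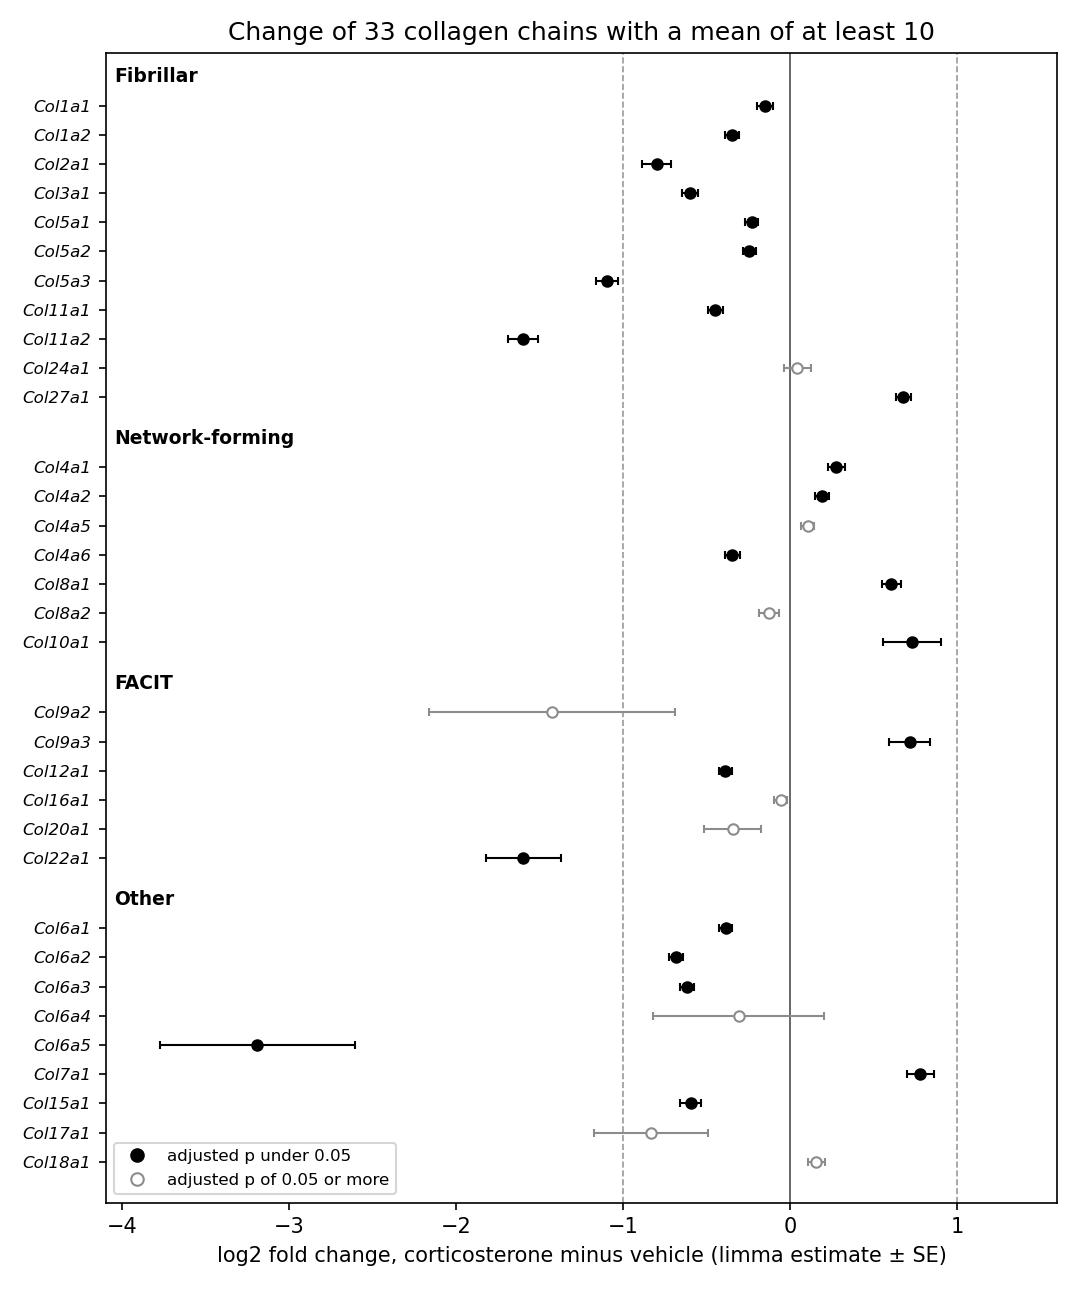
Log2 fold change of the 33 collagen chains with a mean of at least 10 normalized counts, corticosterone minus vehicle, as the limma estimate with its SE (n = 3 libraries a group). Filled points have an adjusted p under 0.05, open points do not, and dashed lines mark a log2 fold change of -1 and 1. Most fibrillar and beaded-filament chains lie left of 0, most network-forming chains lie right of it, and *Col5a3*, *Col11a2*, *Col22a1* and *Col6a5* lie past -1 with filled points.

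Type I collagen was by far the most abundant collagen transcript. *Col1a1* (ENSMUSG00000001506), on chromosome 11 from 94936224 to 94953042 of GRCm38 with 51 exons, had 705180, 694240 and 728290 normalized counts with vehicle and 624030, 628280 and 663960 with corticosterone. *Col1a2* (ENSMUSG00000029661), on chromosome 6 from 4504814 to 4541544 with 52 exons, had 548170, 566100 and 568240 against 436170, 433750 and 450040. All corticosterone libraries were below all vehicle libraries for both chains, and the drop was larger in *Col1a2*. The log2 fold change was -0.35 (SE 0.04, limma adjusted p = 1.8e-05) for *Col1a2*, a fall to 78.5% of the vehicle mean. It was -0.15 (SE 0.05, limma adjusted p = 0.035) for *Col1a1*, at 90.1% of the vehicle mean. With vehicle these chains ranked 1 and 2 of all genes by normalized count, and with corticosterone they ranked 1 and 3.

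The call of *Col1a1* is a weak one in limma. Its adjusted p was above 0.05 in 6 of 17 alternatives, all of these 6 limma fits. The log2 fold change stayed negative in all 17, between -0.21 and -0.13. *Col1a1* was called with edgeR (adjusted p = 0.00415), with DESeq2 (adjusted p = 1.5e-04) and in limma scaled to the same total (adjusted p = 0.00333). Without vehicle replicate 1 the limma adjusted p was 0.0696 and without vehicle replicate 3 it was 0.192. Without corticosterone replicate 1 it was 0.179 and without corticosterone replicate 2 it was 0.106. It was 0.0697 among genes with a mean of at least 10, and 0.256 without the variance trend.

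Levels can be compared between chains after division by the length of the principal transcript. Per kb, the mean normalized count with vehicle was 119600 for *Col1a1*, 104870 for *Col1a2* and 13056 for *Col3a1*. The next were *Col6a1* with 9496, *Col16a1* with 8249, *Col6a2* with 5813, *Col5a2* with 4728 and *Col5a1* with 3664 per kb. The type I chains thus stood well above every other chain. At the lower end of the 33 chains, *Col6a4* had 1.57 and *Col6a5* 2.49 per kb with vehicle.

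**Figure D2:**
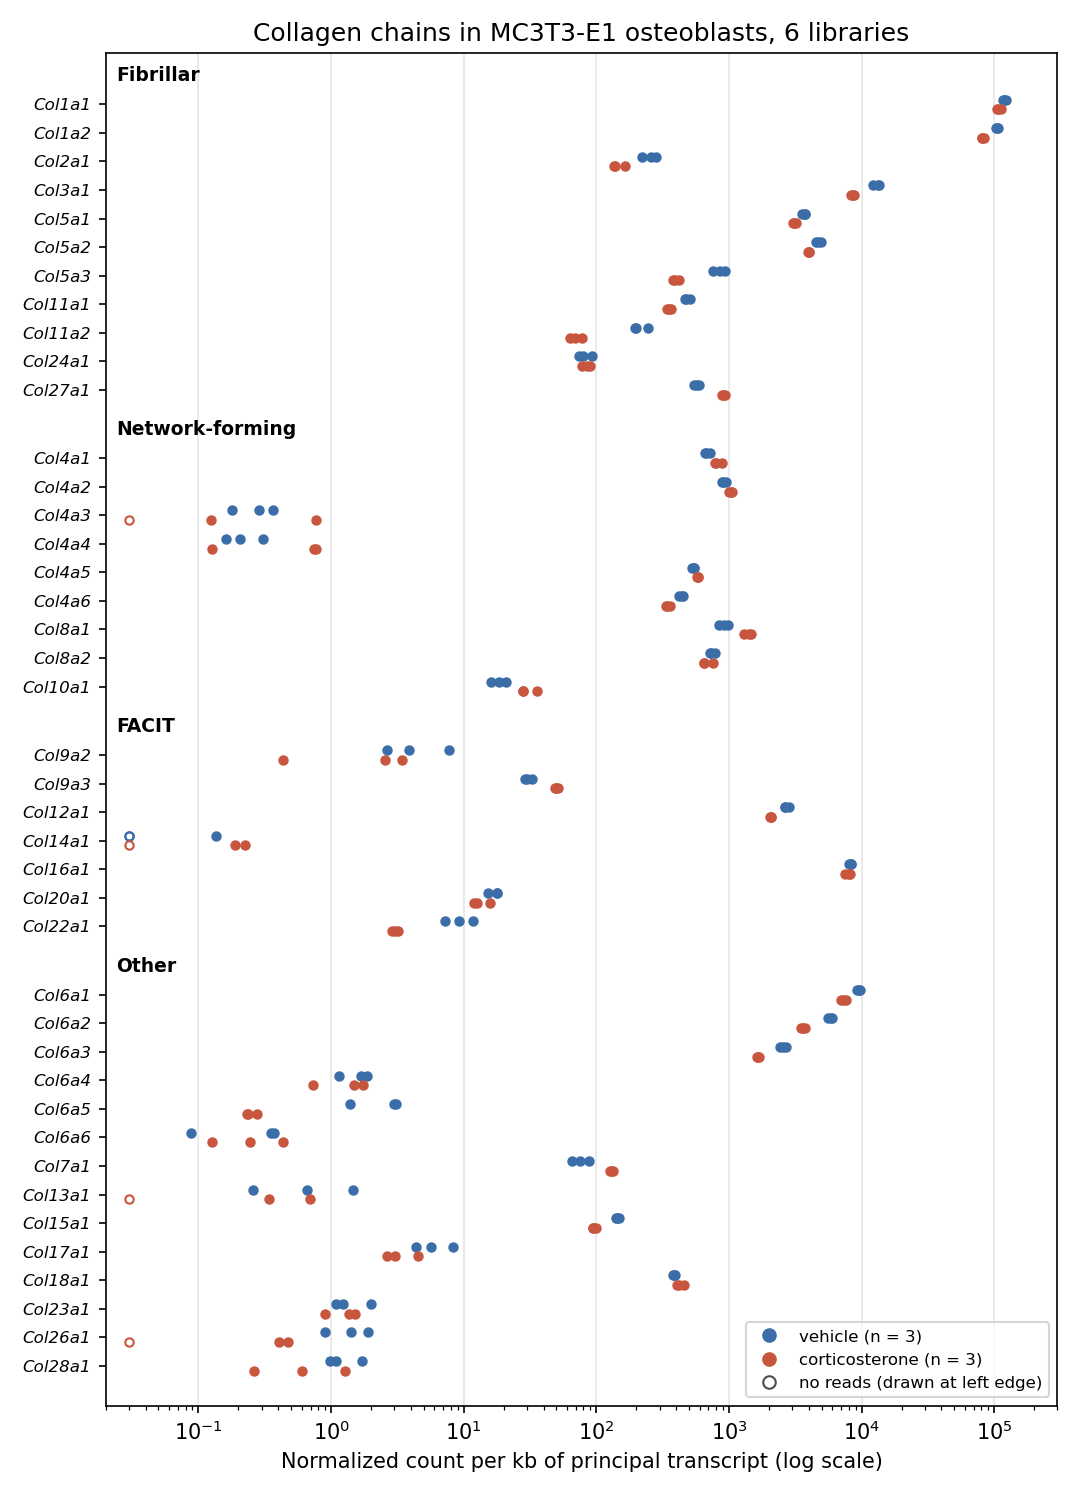
Normalized count per kb of the principal transcript in each of the 6 libraries, on a log axis, for all 41 collagen chains by class. Blue points are vehicle and red points corticosterone libraries, and open points are libraries without a read, drawn at the left edge. *Col1a1* and *Col1a2* sit far to the right of all other chains, and the 2 colours are apart for *Col3a1*, *Col5a3*, *Col11a2*, *Col6a2* and *Col27a1*.

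As a share of each library, the 41 chains held 8.01%, 8.11% and 8.32% of all normalized counts with vehicle and 6.52%, 6.61% and 6.79% with corticosterone. The groups did not overlap, and the mean fell from 8.14% ± 0.16 to 6.64% ± 0.14 (SD, n = 3). The difference of -1.51 percentage points had a two-sided exact permutation p of 0.1, the smallest that 3 against 3 libraries can give. *Col1a1* alone went from 3.59% ± 0.09 to 3.14% ± 0.09 and *Col1a2* from 2.84% ± 0.05 to 2.16% ± 0.03. The share of the network-forming chains went the other way, from 0.126% ± 0.0045 to 0.140% ± 0.0049, with no overlap between groups (exact permutation p = 0.1).

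The makeup of the collagen transcripts shifted inside these shares. Fibrillar chains made up 88.35% ± 0.03 of the collagen counts with vehicle and 88.41% ± 0.12 with corticosterone, which overlapped (exact permutation p = 0.5). Within collagen counts, *Col1a1* held 44.1% ± 0.72 with vehicle and 47.3% ± 0.35 with corticosterone. *Col1a2* went from 34.9% ± 0.36 to 32.6% ± 0.29, *Col3a1* from 4.51% ± 0.21 to 3.55% ± 0.06, and *Col6a1* to *Col6a3* together from 5.27% ± 0.11 to 4.37% ± 0.07. The network-forming chains rose from 1.54% ± 0.07 to 2.11% ± 0.05. Each of these shares other than that of all fibrillar chains was separated between the groups.

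**Figure D3:**
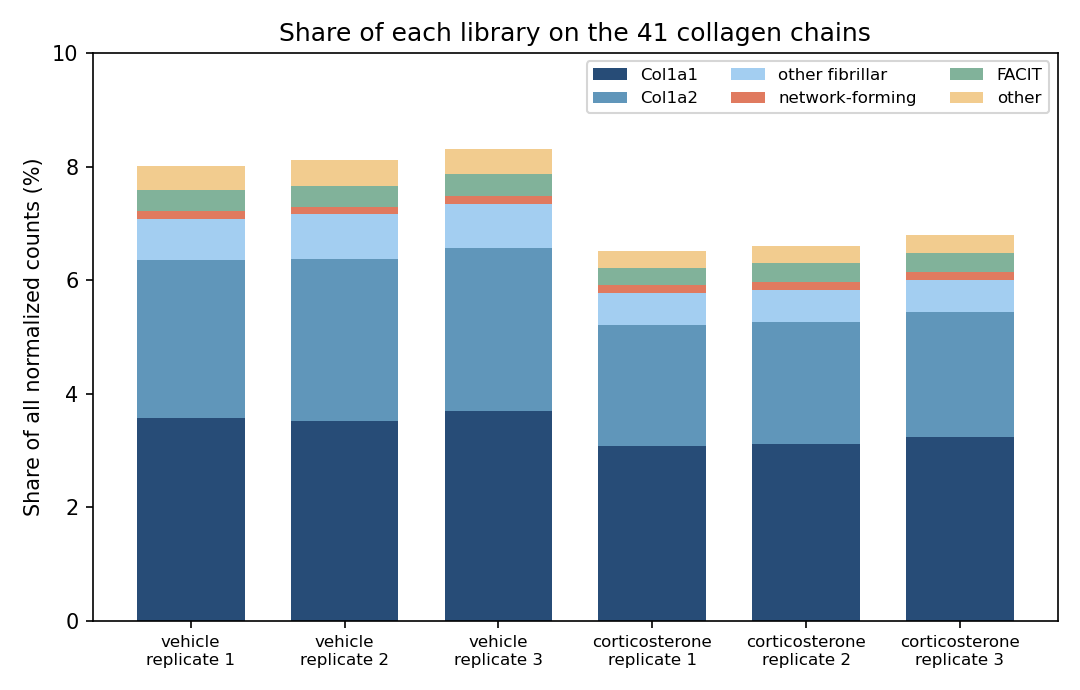
Share of all normalized counts of a library, in percent, that lies on the 41 collagen chains, 1 stacked bar per library with no error bars. The total lies between 8.01% and 8.32% in the vehicle libraries and between 6.52% and 6.79% in the corticosterone libraries, and *Col1a1* and *Col1a2* fill most of every bar.

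Of the 11 fibrillar chains, 9 were lower, 1 was higher and 1 was not called, with a median log2 fold change of -0.35. All 11 had a mean of at least 10, where 13.5% of genes were lower and 14.2% higher. *Col3a1*, the single chain of type III collagen of soft, stretching tissues (ENSMUSG00000026043, chromosome 1, 45311538 to 45349706), had 67791, 75671 and 74472 normalized counts with vehicle and 46355, 48146 and 49071 with corticosterone. The groups were far apart relative to their spread, with a log2 fold change of -0.60 (SE 0.05, limma adjusted p = 5.3e-08). *Col2a1*, the chain of the main cartilage collagen, had a mean of 1297 ± 158 normalized counts with vehicle and 744 ± 81 with corticosterone, a log2 fold change of -0.80 (SE 0.09, limma adjusted p = 3.5e-06). Its level per kb with vehicle, 254, was low beside the 119600 of *Col1a1*.

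Type V collagen, which is built into type I fibrils and limits their width, showed an uneven change among its 3 chains. *Col5a1* fell by 0.23 on the log2 scale (SE 0.04, limma adjusted p = 3.5e-04) and *Col5a2* by 0.25 (SE 0.04, limma adjusted p = 2.3e-04). Their levels were close to each other, at 30803 ± 745 and 31320 ± 1364 normalized counts with vehicle and 26228 ± 879 and 26386 ± 261 with corticosterone. Without the variance trend of limma neither was called (adjusted p = 0.109 and 0.10). *Col5a3* (ENSMUSG00000004098, chromosome 9, 20770050 to 20815067), a less widely used chain of the type, had 4621, 5751 and 5246 normalized counts with vehicle and 2314, 2568 and 2383 with corticosterone. Every corticosterone value was well under the lowest vehicle value, and *Col5a3* fell by 1.10 on the log2 scale (SE 0.06, limma adjusted p = 3.1e-09), to 46.5% of the vehicle mean.

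Type XI collagen is a close relative of type V, best known from the core of cartilage fibrils. *Col11a1* went from 3702 ± 160 to 2710 ± 88.6 normalized counts, a log2 fold change of -0.45 (SE 0.05, limma adjusted p = 2.0e-06). *Col11a2* (ENSMUSG00000024330, chromosome 17, 34039437 to 34066685, 66 exons) had 1320, 1069 and 1053 with vehicle and 370, 340 and 421 with corticosterone. The corticosterone libraries held 32.9% of the vehicle mean, and the log2 fold change of -1.60 (SE 0.09, limma adjusted p = 2.0e-09) was the largest drop of a fibrillar chain. Leaving out 1 library at a time gave -1.684 to -1.497.

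*Col27a1* was the exception among the fibrillar chains. It encodes the minor fibrillar collagen of type XXVII, known from cartilage (ENSMUSG00000045672, chromosome 4, 63214004 to 63334991). Its 3 vehicle libraries had 4166, 4548 and 4340 normalized counts and its corticosterone libraries 6784, 7055 and 7030. The corticosterone group was higher by 0.68 on the log2 scale (SE 0.04, limma adjusted p = 6.5e-09) with little spread in either group. *Col24a1*, the related chain of type XXIV that is found in developing bone, had 587 ± 66.6 and 602 ± 40.5 normalized counts. Its difference of 0.04 on the log2 scale had a 95% interval from -0.13 to 0.21 (limma adjusted p = 0.81). Changes within that interval, in either direction, remain possible.

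Network-forming chains showed the opposite balance, with 4 of 9 higher, 1 lower and 4 not called, and a median log2 fold change of 0.19. Of all genes 8.49% were higher and 8.2% lower. At a mean of at least 10, which 7 of the 9 reached, 14.2% of genes were higher and 13.5% lower. At a mean of at least 1000 these shares were 24.1% and 17.6%. The main basement membrane pair rose slightly. *Col4a1* had 4788, 4334 and 4437 normalized counts with vehicle and 5323, 5211 and 5890 with corticosterone, a log2 fold change of 0.28 (SE 0.05, limma adjusted p = 0.0010). Its partner *Col4a2* went from 5866 ± 212 to 6682 ± 156, a log2 fold change of 0.19 (SE 0.04, limma adjusted p = 0.0035). In both, the lowest corticosterone value lay above the highest vehicle value, while without the variance trend of limma neither was called (adjusted p = 0.152 and 0.175).

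The other type IV chains did not follow them as a group. *Col4a5* had 3546 ± 68.8 normalized counts with vehicle and 3811 ± 46.8 with corticosterone, with no overlap, but its log2 fold change of 0.10 (95% interval 0.02 to 0.19) was not called (limma adjusted p = 0.099). *Col4a6*, which assembles with *Col4a5* in some basement membranes, had 2988, 2813 and 2936 with vehicle and 2259, 2216 and 2396 with corticosterone. It was the only network-forming chain called lower in the fit over all libraries, with a log2 fold change of -0.35 (SE 0.05, limma adjusted p = 4.0e-05). *Col4a3* and *Col4a4*, the chains of the kidney filter, had 0 to 6 and 1 to 7 reads per library and were not called.

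*Col8a1*, a chain of the hexagonal networks under endothelium, had 5058, 4296 and 4684 normalized counts with vehicle and 7272, 6630 and 7426 with corticosterone (ENSMUSG00000068196, chromosome 16, 57624258 to 57754737). The groups were clearly apart, with a log2 fold change of 0.60 (SE 0.06, limma adjusted p = 7.6e-07). Its partner *Col8a2* had 3246 ± 144 and 2973 ± 284, values that overlapped, with a log2 fold change of -0.13 (95% interval -0.26 to -0.0045, limma adjusted p = 0.17). *Col8a2* was called lower without corticosterone replicate 3, at a log2 fold change of -0.21 (limma adjusted p = 0.0285).

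*Col10a1*, the marker chain of hypertrophic chondrocytes, was read far less. It had 57.6, 65.6 and 50.7 normalized counts with vehicle and 111, 88.4 and 88.3 with corticosterone. The log2 fold change was 0.73 (SE 0.17, limma adjusted p = 0.0073), and its limma adjusted p was 0.0623 without vehicle replicate 3, 0.0598 without corticosterone replicate 1 and 0.0671 without the variance trend. *Ihh*, the other marker of these cells that was listed, was near 0, with means of 3.22 and 2.89.

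Among the 7 FACIT chains, 2 were lower, 1 was higher and 4 were not called. Of all genes with a mean of at least 10, 13.5% were lower and 14.2% higher, so the count of higher FACIT chains is near the background. *Col12a1*, which lies along type I fibrils, fell by 0.39 on the log2 scale (SE 0.04, limma adjusted p = 1.6e-06), from 31159 ± 1338 to 23754 ± 226 normalized counts. *Col14a1*, its nearest relative, had at most 1 read in any library. *Col16a1* was the most abundant chain that was not called, with 42944 ± 704 and 41250 ± 1730 normalized counts. Its log2 fold change of -0.06 had a 95% interval of -0.14 to 0.03 (limma adjusted p = 0.40).

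*Col22a1*, known from the junction of muscle and tendon (ENSMUSG00000079022, chromosome 15, 71795795 to 72034227), had 103, 81 and 64.1 normalized counts with vehicle and 26.8, 25.4 and 28.1 with corticosterone. The vehicle libraries varied widely and still lay above all corticosterone libraries. Its log2 fold change was -1.60 (SE 0.23, limma adjusted p = 6.8e-05), and -1.77 to -1.43 when 1 library was left out. *Col20a1* had 85.4 ± 7.64 and 67.4 ± 10.3 normalized counts, which overlapped (limma adjusted p = 0.22).

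Type IX collagen, which coats type II fibrils in cartilage, had 1 chain called higher and 1 not called. *Col9a3* had 90.8, 88.0 and 100 normalized counts with vehicle and 152, 156 and 150 with corticosterone, a log2 fold change of 0.71 (SE 0.12, limma adjusted p = 5.4e-04). The annotation places *Tcfl5* on the other strand over 6.07% of the exon bases of *Col9a3*, and since the sources used here do not say that strand was used in counting, reads there cannot be told apart. *Col9a2* had 11.4, 7.72 and 22.8 against 7.49, 9.94 and 1.28, where the last value is 1 read. It was not called (limma adjusted p = 0.24). Its log2 fold change of -1.43 was -0.54 without corticosterone replicate 3.

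Of the 14 other chains 5 were lower, 1 was higher and 8 were not called, where 8.2% of all genes were lower and 8.49% higher. At a mean of at least 10, which 9 of the 14 reached, 13.5% of genes were lower and 14.2% higher. The beaded-filament collagen VI, which links cells to the fibrils around them, fell in all 3 of its abundant chains. *Col6a1* went from 38935 ± 1084 to 29766 ± 1310 normalized counts, a log2 fold change of -0.39 (SE 0.04, limma adjusted p = 2.9e-06). *Col6a2* (ENSMUSG00000020241, chromosome 10, 76595762 to 76623630) had 21978, 23650 and 23235 with vehicle and 13773, 14340 and 14758 with corticosterone. *Col6a3* had 21788, 22820 and 24142 against 14599, 15232 and 14900. *Col6a2* and *Col6a3* fell by 0.68 and 0.62 on the log2 scale (SE 0.04 for both, limma adjusted p = 3.7e-09 and 1.5e-08), with no overlap between groups.

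*Col6a5* (ENSMUSG00000091345, chromosome 9, 105856078 to 105960643), an alternative chain of type VI, had the largest fitted drop of the chains called, on few reads. Its normalized counts were 13.0, 28.6 and 27.9 with vehicle and 2.14, 2.21 and 2.56 with corticosterone, and each corticosterone library had 2 reads. The fitted log2 fold change of -3.19 (SE 0.58, limma adjusted p = 8.4e-04) depends on the value added before taking logs. In reads scaled for depth the ratio of corticosterone to vehicle was 0.10, with an exact 95% interval of 0.0356 to 0.227 from 80 and 6 reads, which covers counting error only. *Col6a4* and *Col6a6*, its neighbours on the chromosome, had means of 11.6 and 9.73 and of 2.37 and 2.36 normalized counts and were not called.

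*Col7a1*, whose protein forms the anchoring fibrils below the epidermis (ENSMUSG00000025650, chromosome 9, 108953586 to 108984875, 119 exons), had the largest estimated rise of the chains called higher. It had 812, 601 and 696 normalized counts with vehicle and 1228, 1200 and 1167 with corticosterone, a log2 fold change of 0.78 (SE 0.08, limma adjusted p = 3.1e-06). The multiplexins carry a cleavable anti-angiogenic end, and 1 of the 2 was called. *Col15a1* fell by 0.60 on the log2 scale, from 750 ± 19.0 to 496 ± 18.3 normalized counts (SE 0.06, limma adjusted p = 2.5e-06). *Col18a1*, the source of endostatin, had 1890, 1837 and 1801 against 1935, 2028 and 2202, separated by a narrow gap. Its log2 fold change of 0.16 (95% interval 0.04 to 0.27) was not called (limma adjusted p = 0.055). *Col18a1* was called in 6 of 17 alternatives. These were edgeR (adjusted p = 0.0257), edgeR with the replicate number as a block, DESeq2 (adjusted p = 0.0434) and limma without corticosterone replicate 1 (adjusted p = 0.0436). The others were limma with 1 rather than 0.1 added before taking logs, and limma on genes with a mean of at least 10.

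Of the 3 transmembrane chains 0 were called in limma, edgeR or DESeq2, and at an unadjusted p under 0.05 limma and edgeR had 1 lower. *Col17a1*, the hemidesmosome chain, had 33.4 ± 11 and 18.5 ± 5.39 normalized counts, with overlap, and a log2 fold change of -0.83 with a 95% interval of -1.56 to -0.11 (limma adjusted p = 0.12). *Col13a1*, *Col23a1*, *Col26a1* and *Col28a1* had at most 14 reads in any library and were not called. *Col26a1* was the only one of these 4 without overlap, at 2.43, 3.86 and 5.17 against 0, 1.10 and 1.28 normalized counts. Its 95% interval was -5.38 to -0.17 on the log2 scale (limma adjusted p = 0.16). Since 3 reads amount to 2.32 to 3.84 normalized counts, these 4 chains rest on few reads. The lack of a call does not show that they did not change.

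Ratios of chains within a library do not depend on how libraries were scaled. Of 17 pairs from the same molecule or fibril, 14 had a mean of at least 10 in both chains and were tested. The ratios of 13 pairs were separated between the groups, 7 higher and 6 lower with corticosterone, each with a two-sided exact permutation p of 0.1, the smallest possible, and 0.108 after adjustment over 14 pairs. No pair can therefore pass 0.05 by this test. Several pairs share *Col1a1* or *Col5a1*, so the pairs are not independent. Ratios of other gene pairs were not tested, and of single genes 14.9% were separated as lower and 14.7% as higher.

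The ratio of *Col1a1* to *Col1a2* was 1.29, 1.23 and 1.28 with vehicle and 1.43, 1.45 and 1.48 with corticosterone. Per kb of transcript, it rose from 1.14 ± 0.03 to 1.31 ± 0.02. *Col11a1* exceeded *Col11a2* by 2.71, 3.42 and 3.69 times with vehicle and by 7.56, 7.96 and 6.23 times with corticosterone, a 2.22-fold larger ratio. These groups were well apart for both pairs. The ratio of *Col8a1* to *Col8a2* went from 1.44 ± 0.15 to 2.40 ± 0.16, that of *Col4a5* to *Col4a6* from 1.22 ± 0.05 to 1.67 ± 0.07, and that of *Col6a1* to *Col6a2* from 1.70 ± 0.02 to 2.08 ± 0.03. *Col4a1* to *Col4a2* moved only from 0.770 ± 0.013 to 0.819 ± 0.040.

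In each of the 6 ratios that fell the first chain was read less than the second, and several share *Col1a1* as the second. *Col5a3* to *Col5a1* went from 0.169 ± 0.015 to 0.0925 ± 0.0075 and *Col3a1* to *Col1a1* from 0.103 ± 0.0064 to 0.0749 ± 0.0015. The ratio of *Col12a1* to *Col1a1* went from 0.0439 ± 0.0009 to 0.0372 ± 0.0015, and that of *Col6a3* to *Col6a1* from 0.589 ± 0.024 to 0.501 ± 0.021. *Col11a1* to *Col5a1* and *Col5a1* to *Col1a1* were lower as well. *Col5a1* to *Col5a2*, the pair of the common type V molecule, was the pair that overlapped, at 0.984 ± 0.028 and 0.994 ± 0.036 (exact permutation p = 0.7). The ratio of *Col9a3* to *Col9a2*, counted among the separated pairs, rests on 1 read of *Col9a2* in corticosterone replicate 3. *Col9a2* reached the mean of at least 10 that the pairs needed only through its vehicle libraries. The log2 difference of this ratio, 2.18, was 1.27 without corticosterone replicate 3.

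**Figure D4:**
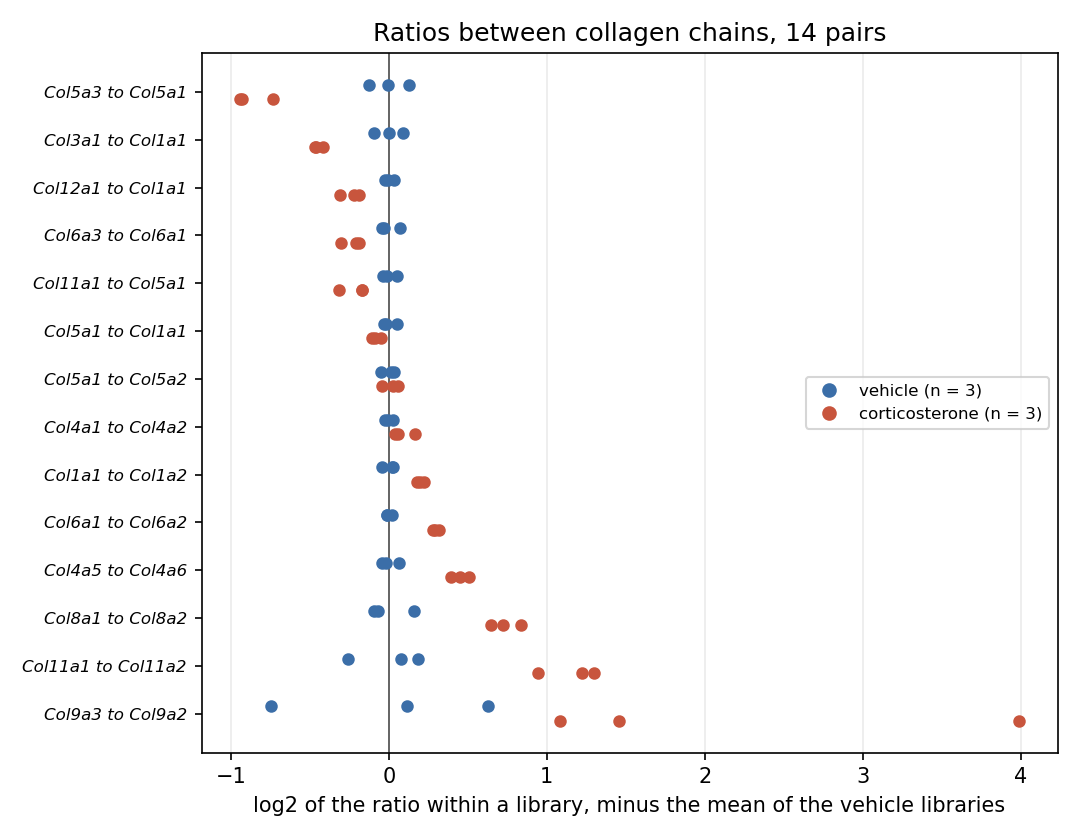
Ratio of 2 collagen chains within each library for 14 pairs, as log2 of the ratio minus the mean of the 3 vehicle libraries. Blue points are vehicle and red points corticosterone libraries. The colours overlap for *Col5a1* to *Col5a2* and are apart for the other 13 pairs, with the widest gap to the right for *Col11a1* to *Col11a2* among pairs with more than a few reads and to the left for *Col5a3* to *Col5a1*.

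The listed genes around the collagens moved in both directions. Of 31 genes for folding, modifying, secreting and crosslinking collagen that were tested, 9 were lower and 7 higher at an adjusted p under 0.05. Most are abundant, and of all genes with a mean of at least 1000, 17.6% were lower and 24.1% higher. The count of higher genes is thus near the background, and that of lower genes is above it. *Loxl2*, a crosslinking enzyme, was the only one past the stricter threshold, at 33.3 ± 14.1 and 72.1 ± 24.0 normalized counts (log2 fold change 1.15, limma adjusted p = 0.014). *Lox*, the main crosslinking enzyme, named here after its values were seen, rose from 12069 ± 820 to 21505 ± 555. Of the 9 collagen receptors tested 0 were lower and 7 higher at an adjusted p under 0.05, and limma, edgeR and DESeq2 each gave 0 lower also at an unadjusted p under 0.05. Of all genes 8.49% were higher, and 24.1% of those with a mean of at least 1000. Their leading member *Itga10*, the alpha subunit of a collagen-binding integrin, went from 593 ± 129 to 2215 ± 51.9 (log2 fold change 1.92, limma adjusted p = 9.8e-10).

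Of the 9 genes of collagen breakdown 4 were lower (*Mmp9*, *Ctsk*, *Timp1* and *Timp3*) and 2 higher (*Mmp14* and *Timp2*), named after their values were seen, with proteases and inhibitors on both sides. *Mmp9*, a gelatinase, fell past the stricter threshold from 2733 ± 196 to 1037 ± 82.3 normalized counts (log2 fold change -1.40, limma adjusted p = 1.3e-10). Of the 10 genes of fibril-binding proteins 4 were lower and 3 higher. Of all genes with a mean of at least 1000, 17.6% were lower and 24.1% higher. In both short lists the share of higher genes is near that background, and the share of lower genes is above it. *Lum*, the fibril-binding proteoglycan lumican, fell from 12353 ± 1122 to 3258 ± 275 (log2 fold change -1.92, limma adjusted p = 3.8e-12). *Tnxb*, tenascin-X, rose from 146 ± 18.5 to 395 ± 36.9 (log2 fold change 1.43, limma adjusted p = 5.7e-08).

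Markers of the labelled cell type and of others were read beside these results. All 9 osteoblast markers had reads, and 6 were lower and 1 higher. Of the 9, 8 had a mean of at least 10, where 13.5% of genes were lower and 14.2% higher. The higher one was *Spp1*, from 102650 ± 4555 to 120670 ± 1382 normalized counts (log2 fold change 0.23, limma adjusted p = 6.1e-04). *Dmp1* and *Phex* were not called. *Col1a1*, itself a collagen chain, and *Alpl* were lower short of the stricter threshold. Past that threshold 4 were lower beside the fall of the collagens, where 1.4% of all genes were. *Runx2*, the master transcription factor of osteoblasts, went from 2339 ± 127 to 1049 ± 37.4 normalized counts and *Sp7*, which acts after it, from 665 ± 73.4 to 262 ± 24.8. *Bglap*, osteocalcin, went from 232 ± 33.8 to 63.5 ± 11.4 and *Ibsp*, bone sialoprotein, from 729 ± 116 to 320 ± 81.3. The summed level of the 9 markers, 808400 to 835800 with vehicle and 746700 to 788300 with corticosterone, is mostly *Col1a1* and does not show these falls. Of the chondrocyte markers 5 of 7 were tested (*Acan* and *Col9a1* were not analysed here). Of these 5, 3 were lower and 0 higher, where 8.2% of all genes were lower and 8.49% higher. The 5 summed to 3585 to 3990 with vehicle and 2939 to 3011 with corticosterone, mostly *Sox9* and *Col2a1*. *Sox9* was called lower (log2 fold change -0.16, limma adjusted p = 0.036). *Matn1* had at most 2 reads, and *Hapln1*, called lower past the stricter threshold, had 1 read in each corticosterone library and at most 13 in any. The 3 tenocyte markers summed to 240 to 366 and 171 to 198, with *Scx* lower and *Tnmd* at 1 read at most. The 2 adipocyte markers tested summed to 7.72 to 21.1 and 108 to 133, nearly all *Fabp4*, while *Plin1* had at most 2 reads. The 2 endothelial markers tested of 4, *Pecam1* and *Tek*, had at most 9 reads each. The 3 epithelial markers tested summed to 234 to 350 and 131 to 156, almost all *Krt14*, which was called lower (log2 fold change -0.96, limma adjusted p = 4.4e-05). *Krt5* and *Cdh1* had at most 6 reads. The 2 haematopoietic markers tested summed to 46.5 to 62.4 and 43.5 to 47.5. The part of other cell types, and of the fall of the osteoblast markers, in the collagen results was not tested.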

How the data were processed

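The libraries were made with an NEBNext Ultra RNA kit, and mm10 is the build in the submitters' notes. The aligner, the counting program and any use of strand are not given in the sources used here. The authors deposited 1 table with a signal per gene and library, named FPKM there. In each library a single step divides all values whatever the gene length, so they are read counts over a size factor, and whole reads were recovered for 100% of values (tolerance 0.05).

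The tests expected FPKM-like values and were not changed. For the main test, limma 3.58.1 was run in R 4.3.3 (trended prior variance) on log2(value + 0.1), two-sided, over genes with a mean of at least 0.1, which removed none of the 24016 genes (lowest mean 0.257). Confidence intervals are those of limma. Single values and ratios were compared by two-sided exact permutation tests. Replicates are 3 cultures a group per the labels. The counts of same-group pairs differed by more than sampling noise (chi-square per degree of freedom of 3.38 or more), so none was the same library sequenced again. Separate libraries from the same culture could differ in this way too, so that the cultures were separate rests on the labels. Libraries with the same number did not deviate together (correlations -0.02 to 0.02), so numbers were not used as pairs.

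Symbols, coordinates and transcript lengths came from GENCODE for GRCm38 (24008 identifiers matched, 8 had no symbol) and promoter windows from RefSeq. At most 6.07% of the exon bases of a chain overlap another gene. All chains are named. Of the lists of other collagen genes, those past the stricter threshold are named, apart from genes marked as named after their values were seen. Of the cell type markers, all osteoblast markers, those past that threshold and those that set or define the sum of a list are named. The chains, lists and tests were chosen with earlier results of these data known. Alternatives were other pseudocounts, filters and scalings, no variance trend, the replicate block, edgeR 4.0.16 and DESeq2 1.42.0 on recovered reads, and leaving out each library. Figures were drawn in matplotlib 3.10.9 under Python 3.11.15, with pandas 2.3.3 for the tables.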

Additional observations from a re-analysis of the deposited data

How the results depend on the processing

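In every alternative run, 4 chains were lower and 0 higher past the stricter threshold. At an adjusted p under 0.05 the number of lower chains was 14 to 19 against 17, and 16 to 18 when 1 library was left out. The number of higher chains was 4 without the variance trend and otherwise 6 to 8, against 7. Without the trend *Col1a1*, *Col5a1*, *Col5a2*, *Col4a1*, *Col4a2* and *Col10a1* were no longer called. With the replicate number as a block in limma the counts of lower and higher chains were again 17 and 7, and the block with edgeR gave 18 and 8. The numbers do not pair the cultures, so this fit says nothing on matched pairs. Over all genes, 337 were lower and 331 higher past the threshold, and 294 and 297 with the replicate block. In limma, leaving out 1 library gave 204 to 321 lower and 253 to 331 higher, with 220 lower without vehicle replicate 2 and 204 without vehicle replicate 3. The difference in the collagen share of a library was -1.58 to -1.42 percentage points with 1 library left out. *Col8a2* was called lower under 2 scalings (adjusted p = 0.0486 for the same total and 0.0327 outside the 10 most read genes), and *Col16a1* under the latter (adjusted p = 0.0493), both in limma, and *Col8a2* also with edgeR and the replicate block (adjusted p = 0.0268). Signs turned in chains that were not called. *Col24a1* had a log2 fold change of -0.0006 when scaled to the same total, -0.0135 when scaled outside the 10 most read genes, and -0.0279 to 0.13 with 1 library left out. With DESeq2 *Col4a3* had 0.15 and *Col6a6* -0.0081. With 1 library left out, the range was -2.79 to 0.24 for *Col4a3*, -0.55 to 0.0689 for *Col6a4*, -0.57 to 0.50 for *Col6a6* and -0.34 to 0.0858 for *Col23a1*, and -0.00902 to 0.0433 for the log2 ratio of *Col5a1* to *Col5a2*. The cause of these changes was not tested. The depth limits the 8 chains with a mean under 10 normalized counts.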

Other observations

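Several collagen chains lie side by side in the genome, and their log2 fold changes are given here side by side. *Col4a1* and *Col4a2* stand head to head on chromosome 8, where the annotated genes overlap by 22 bases, and both were called higher, at log2 fold changes of 0.28 and 0.19. *Col4a6* and *Col4a5* stand head to head on chromosome X with 1308 bases between them, at log2 fold changes of -0.35, called lower, and 0.10, not called. *Col4a4* and *Col4a3*, 71 bases apart on chromosome 1, had too few reads to compare. *Col3a1* and *Col5a2* point at each other on chromosome 1 with 24614 bases between, at -0.60 and -0.25, and *Col6a2* and *Col6a1* follow each other on chromosome 10, 85161 bases apart, at -0.68 and -0.39. No neighbouring pair was compared with pairs of other genes.

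Changes of chains of the same collagen are set side by side here with their levels, without a test of the difference. The chain with the lower level per kb had the larger estimated fall in type V (*Col5a3*, 851 per kb with vehicle) and in type XI (*Col11a2*, 213 per kb, against 483 for *Col11a1*). The abundant chains of type VI did not follow this order. *Col6a2* (5813 per kb with vehicle) had a log2 fold change of -0.68 and *Col6a3* (2546 per kb) of -0.62. In type VIII the chain with the higher level, *Col8a1* (916 per kb with vehicle, against 749 for *Col8a2*), rose and its partner was not called. Ranked by normalized count among all genes, *Col11a2* went from 3764 with vehicle to 7776 with corticosterone, *Col5a3* from 542 to 1630 and *Col2a1* from 3341 to 5417, while *Col7a1* went from 5584 to 3649 and *Col27a1* from 715 to 390.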
